A study of Mus musculus with 10 samples.

Results

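The genes described here encode semaphorins, plexins, ephrins and Eph receptors, the membrane and secreted proteins by which axons and dendrites attract or repel each other. They were taken by symbol, as every row whose name begins with Sema3 to Sema7, Plxna to Plxnd, Epha or Ephb with a number, or Efna or Efnb with a number. This gave 52 of 32531 gene rows, namely 20 semaphorins, 9 plexins, 14 Eph receptors, 8 ephrins and 1 noncoding antisense row, Plxna4os1. Ribosome-bound RNA was measured in 9 pull-downs, 3 each from cocaine self-administration, yoked control and saline self-administration mice, and total RNA in 1 input library of the striatum. All mice were adults of line Drd1-TRAP CP73, which carries an EGFP-tagged ribosomal protein, Rpl10a, driven by Drd1, so that antibody capture takes ribosomes from dopamine D1 receptor cells, chiefly medium spiny neurons of the direct pathway. The strain background was FVB/N-Swiss Webster x C57BL/6, bred for at least 9 generations to C57BL/6. What the yoked mice received, how many infusions were taken and whether a library held 1 animal or several are not given in the labels, so p-values measure the spread between these libraries, which may be technical.

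Semaphorins of class 3 are secreted and act mostly through neuropilins together with A plexins, whereas classes 4 to 7 are anchored in the membrane and bind plexins directly. Plexins carry an intracellular domain that switches off Ras-family GTPases and so loosens adhesion and the cytoskeleton. Ephrins are anchored to the cell surface, the A class by a lipid and the B class by a transmembrane segment, and they signal in both directions with Eph receptor tyrosine kinases on the facing cell. In the mouse striatum Sema3e from thalamic axons acts on Plxnd1 of direct-pathway neurons, and EphA receptors and ephrins take part in sorting striatal compartments.

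Cocaine pull-downs held 32169018 to 33432793 gene counts, yoked 38611396 to 45242175 and saline 12528806 to 28408236, and the input held 40519976. Levels are given as counts per 1000000 gene counts (CPM), in which a count of 3, taken as the limit of detection for counting error only, is 0.0663 to 0.239 CPM in a pull-down. Each group was sequenced in a lane of its own (1 for cocaine, 2 for yoked, 3 for saline and 5 for the input), and the effects of group and lane cannot be told apart. D1 neuron markers (7 genes) summed to 2424 to 2773 CPM in cocaine, 2232 to 3274 in yoked and 2483 to 2911 in saline pull-downs, against 1116 in the input. Glial RNA was lower but present and uneven. Summed astrocyte markers (9 genes) were at 229 to 484 CPM in cocaine, 239 to 1128 in yoked and 225 to 660 in saline libraries, against 2611 in the input, and summed oligodendrocyte markers (10 genes) at 247 to 518, 213 to 1067 and 260 to 695, against 2949. None of these 19 glial markers was at 0 in all pull-downs. Markers of cortical glutamatergic neurons (8 genes) summed to 80.6 to 114 CPM in cocaine, 31.0 to 126 in yoked and 33.1 to 89.8 in saline libraries, against 59.7 in the input, with a median log2 ratio of 0.81. None of the 8 was above the input in every pull-down and 2 were below it in every one. In bulk RNA, fewer cells of a type and less RNA per cell cannot be told apart.

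Of the 52 genes, 45 passed the count filter of the tests between groups and 44 the level filter for the comparison with the input, an average of the pull-down mean and the input of at least 1 CPM. The 8 below that level were Efna1, Efna4, Epha1, Epha2, Ephb4, Sema3b, Sema3g and Plxna4os1. Sema3b, a secreted semaphorin, was detected in all of them, with 10 to 40 counts in each pull-down, and of the 8 it was the single gene that passed the filter between groups. Epha1 had at most 3 counts, and Epha2, Efna4 and Sema3g at most 4, in any pull-down. Plxna4os1 lies within the span of Plxna4 and had 9 counts in the input and 1 in a single pull-down. Whether reads were counted by strand is not given, so its reads and those of Plxna4 cannot be told apart.

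The pull-downs were compared with the input to describe which guidance genes stood higher or lower in captured RNA than in total RNA. Captured and total RNA can differ in the cells they come from and in ribosome loading, which the ratio cannot tell apart. Most guidance genes lay below the input. The mean log2 ratio of CPM plus 0.5, over the 9 pull-downs, was below 0 for 34 of 44 genes, where it was for 52.2% of all 13612 genes over the level filter, and the median was -0.41 against -0.04 over all genes. In each of the 9 pull-downs 22 genes were below the input and 4 above it, where 35.6% and 29.7% of all genes were. At least 2-fold below it in every pull-down were 5 genes, all semaphorins (Sema4d, Sema4g, Sema5a, Sema6a and Sema6d), beside 11.0% of all genes, and 0 were at least 2-fold above it, beside 3.5%. TMM scaling over the 10 libraries put the median at 0.16 over all genes and at -0.20 over the 43 guidance genes then above the level filter. With it 16 of the same 22 remained below and 6 lay above, the same 4 with Plxnd1 and Sema3f, where 28.4% and 39.4% of all genes did. Those no longer below in every pull-down were Epha3, Epha6, Epha10, Plxna3, Sema3c and Sema3d. Of these 22, the 5 that lay at least 2-fold below became 3 (Sema4g, Sema5a and Sema6a), beside 9.1% of all genes. There was 1 input library, so these ratios have no replicate of the input and no test.

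**Figure D1:**
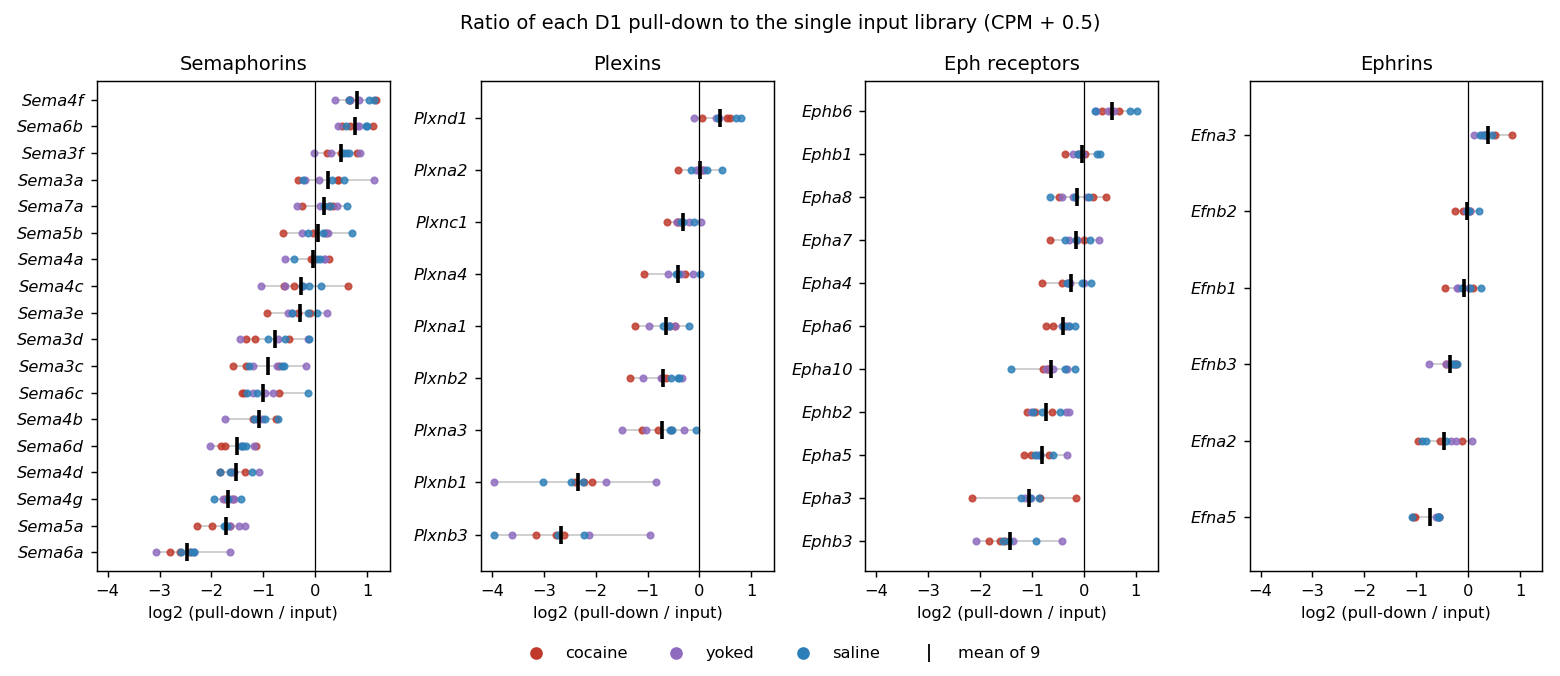
Log2 ratio of each pull-down to the input for the 44 genes over the level filter, by family, with 1 point per library coloured by group and a black tick at the mean of 9. Sema4f, Sema6b, Ephb6 and Efna3 have every point right of 0, and the widest spreads are those of Plxnb3 and Plxnb1.

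Among the semaphorins the ratio ran from a mean log2 value of -2.46 to 0.80. The highest belonged to Sema4f (chromosome 6, 82911884 to 82939769), a transmembrane class 4 semaphorin, with a lowest, median and highest level of 20.0, 24.7 and 35.1 CPM in the pull-downs against 15.2 in the input. Sema6b (chromosome 17, 56123085 to 56140343), a transmembrane class 6 semaphorin, followed with 29.8, 38.6 and 47.7 CPM against 21.7. For both genes all 9 pull-downs lay above the input, 1.75-fold and 1.71-fold on average. Sema7a, the lipid-anchored semaphorin, was at 40.6, 62.6 and 80.2 CPM against 52.1, above the input in 7 of 9. The secreted Sema3a, a classical repellent, was at 33.3, 52.8 and 93.0 CPM against 41.9, with its highest value in yoked 3. That library was also highest in the cortical glutamatergic markers, at 126 CPM, and in the D1 markers, at 3274 CPM. Yoked 1, next in the cortical markers at 118 CPM, had Sema3a at 44.2 CPM. The part of cortical RNA in the genes above the input was not tested. Sema3f, a secreted ligand that acts through a neuropilin, was at 5.15, 7.74 and 9.89 CPM against 5.21, with 1 pull-down, from the yoked group, just under the input. Sema5b, at 11.8 to 30.3 CPM against 18.4, and Sema4a, at 6.54 to 12.2 against 10.04, lay on either side of it.

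The lowest semaphorin was Sema6a, which binds A plexins, at 6.15, 9.98 and 17.3 CPM in the pull-downs against 54.9 in the input, a 5.51-fold lower mean. Sema5a (chromosome 15, 32244813 to 32696341), a transmembrane semaphorin with thrombospondin repeats, was at 5.95, 9.19 and 11.9 CPM against 30.9, or 3.31-fold lower. Sema4g was 3.19-fold, Sema4d, a ligand of Plxnb1, 2.88-fold and Sema6d, a ligand of Plxna1, 2.83-fold lower. Class 6 was thus split, with Sema6a, Sema6c and Sema6d below the input in all 9 pull-downs and Sema6b above it in all 9. Class 4 was split likewise, with Sema4b, Sema4d and Sema4g below and Sema4f above. Of the secreted class 3, Sema3c was at 0.359 to 1.79 CPM against 2.07 and Sema3d at 0.420 to 1.84 against 2.02. Both were below the input in all 9 by CPM, but not with TMM scaling. By CPM none of the 5 over the level filter was above it in all 9.

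Promoter sequence is shown for semaphorins and an ephrin that stood on the same side of the input under all 3 scalings. Efna3, Sema4f and Sema6b were above it in each pull-down and Sema5a at least 2-fold below it in each. Ephb6, Sema4g and Sema6a also met this and are named only. Each line gives the 150 bases before the gene's outermost start, 5′ to 3′ on the gene's strand, from RefSeq on GRCm38.p6, in which 45 of the 52 genes had an entry. The windows are chr3:89322940-89323089, minus strand for Efna3, chr6:82939770-82939919, minus strand for Sema4f, chr17:56140344-56140493, minus strand for Sema6b and chr15:32244663-32244812, plus strand for Sema5a. Capitals mark the GC box GGGCGG and the CCAAT box CCAAT on either strand, with overlapping matches run together.
Efna3: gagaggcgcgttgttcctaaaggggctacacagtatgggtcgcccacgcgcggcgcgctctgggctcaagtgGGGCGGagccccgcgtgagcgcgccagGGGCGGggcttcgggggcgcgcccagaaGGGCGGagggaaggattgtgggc
Sema4f: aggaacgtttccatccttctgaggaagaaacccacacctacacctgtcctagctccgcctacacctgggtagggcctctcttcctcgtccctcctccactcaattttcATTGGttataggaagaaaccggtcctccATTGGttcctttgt
Sema6b: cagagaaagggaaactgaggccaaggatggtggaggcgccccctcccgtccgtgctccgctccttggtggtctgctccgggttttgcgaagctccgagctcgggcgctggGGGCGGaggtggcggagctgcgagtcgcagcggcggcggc
Sema5a: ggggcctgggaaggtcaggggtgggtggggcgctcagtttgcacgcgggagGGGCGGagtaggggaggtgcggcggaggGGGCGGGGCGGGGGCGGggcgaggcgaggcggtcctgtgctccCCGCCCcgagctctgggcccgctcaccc
The GC box had 3 matches in the Efna3 window, 0 in Sema4f, 1 in Sema6b and 5 in Sema5a, and 28.6% of 32817 windows of this length held it. The CCAAT box had 2 matches in Sema4f and 0 in the other windows, and 24.5% of all windows held it. Neither TATAAA (7.58% of all windows) nor the cAMP response element TGACGTCA (1.36%) matched in any of the 4, on either strand. The GC box was found on both sides of the input. A match is a run of letters and says nothing of a bound factor.

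Among the plexins 0 of 9 were above the input in every pull-down by CPM. Plxnd1 (chromosome 6, 115954811 to 115995339), the receptor of Sema3e, had the highest ratio, at 56.7, 80.2 and 108 CPM in the pull-downs against 61.4 in the input, and 8 of 9 lay above it. Sema3e itself was at 17.6, 26.8 and 39.8 CPM against 33.9 and lay above the input in 2 of 9. Plxna2, a receptor of class 6 semaphorins (chromosome 1, 194619791 to 194816869), stayed near the input, at 113, 153 and 202 CPM against 150. Plxnc1, the receptor of Sema7a, was at 15.7, 18.9 and 24.9 CPM against 24.5, and Plxna4 at 30.9, 49.3 and 65.6 against 65.4. Plxna1 and Plxna3 were below the input in all 9 pull-downs by CPM, with mean log2 ratios of -0.65 and -0.72.

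The lowest ratios of the family were those of Plxnb3 and Plxnb1, which are B plexins. Plxnb3 (chromosome X, 73756556 to 73772510) was at 0.299, 1.37 and 5.92 CPM in the pull-downs against 11.9 in the input, 6.41-fold lower on average. Plxnb1 (chromosome 9, 109093849 to 109119915), the receptor of Sema4d, was at 1.24, 5.14 and 14.7 CPM against 26.4, 5.05-fold lower. Plxnb2 was at 5.44, 9.15 and 11.4 CPM against 14.6. All 3 B plexins were below the input in each pull-down under each scaling.

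By family median, Eph receptors lay closer to the input than plexins (-0.65) and semaphorins (-0.53), but not closer than ephrins (-0.21). Of 11 over the level filter, 10 had a mean log2 ratio below 0, and the family's median was -0.40. The exception was Ephb6 (chromosome 6, 41603834 to 41620509), which lacks kinase activity, at 18.8, 23.7 and 33.6 CPM in the pull-downs against 16.2 in the input, above it in all 9. Epha4 (chromosome 1, 77367182 to 77515107), which binds ephrins of both classes, was at 116, 167 and 223 CPM against 202. Ephb1 was at 43.4, 52.8 and 69.4 against 55.8. Both lay on either side of the input, as did Epha7 at 48.3 to 93.9 CPM against 76.5 and Epha8 at 3.99 to 8.95 against 6.54. Below it in every pull-down by CPM were Epha5 at 12.6 to 22.7 CPM against 28.6 and Epha6 at 24.1 to 35.6 against 40.3. So were Ephb2 at 1.29 to 2.64 against 3.31, and Epha10, which lacks kinase activity, at 1.20 to 3.46 against 3.97. With TMM scaling Epha6 and Epha10 were not below it in every one. Ephb3 and Epha3 had the lowest ratios, at 0.0442, 0.304 and 1.22 CPM against 1.80 for Ephb3 and at 0.419, 1.50 and 3.20 against 3.60 for Epha3. Ephb3 had 2 counts in yoked 3 and 53 in yoked 2, and its log2 ratio of -1.42 became -0.67 when the pseudocount was 2 CPM and -2.19 in edgeR.

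Among the ephrins, Efna3, a lipid-anchored ligand (chromosome 3, 89313899 to 89322939), was above the input in all 9 pull-downs, at 7.09, 8.22 and 12.1 CPM against 6.49. The transmembrane ligand Efnb2 (chromosome 8, 8617235 to 8661242) was the steadiest gene of the 44, at 83.4, 98.4 and 115 CPM against 99.4, with an SD of 0.12 on the log2 scale over the 9 pull-downs. Efnb3 was at 58.4, 80.7 and 84.3 CPM against 98.3 and below the input in each, Efnb1 at 1.97 to 3.51 against 2.89. Efna5 had the lowest ratio of the family, at 15.0, 21.6 and 22.0 CPM against 32.5. Efna2 was at 2.31, 3.59 and 5.33 CPM against 5.01, above the input in 1 of 9.

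Pull-downs of the same group differed in some of these genes by more than the groups did. The SD of log2 CPM over the 9 pull-downs had a median of 0.30 over the 44 genes and 0.24 over all genes, and was largest for Plxnb3 at 0.88 and Plxnb1 at 0.85. For Plxnb3 the values were 1.31, 1.53 and 0.901 CPM in cocaine 1, 2 and 3, 2.33, 5.92 and 0.508 in yoked 1, 2 and 3, and 1.37, 2.16 and 0.299 in saline 1, 2 and 3. In each group the library numbered 3 was the lowest, and yoked 2 was the highest of all. For Plxnb1 the values were 4.59, 5.92 and 5.25 CPM in cocaine, 7.20, 14.7 and 1.24 in yoked and 5.14, 4.31 and 2.82 in saline libraries, again with yoked 2 highest and yoked 3 lowest.

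Glial marker RNA moved with Plxnb3, though not alone. Summed markers of D2 medium spiny neurons, oligodendrocyte precursors and microglia were also highest in yoked 2. The D2 markers (7 genes) were at 241 to 300 CPM in cocaine, 224 to 530 in yoked and 165 to 384 in saline libraries. The library numbered 3 was the lowest of each group, and the input was at 1583. The relation of these markers to Plxnb3 was not tested. The astrocyte score, the mean log2 CPM of the 9 markers, was 4.11, 3.98 and 3.15 in cocaine 1, 2 and 3, 4.23, 5.27 and 2.98 in yoked 1, 2 and 3, and 3.72, 4.45 and 2.99 in saline 1, 2 and 3. Over the 9 pull-downs log2 CPM of Plxnb3 followed it with a Pearson r of 0.96 (two-sided exact permutation p = 5.24e-05, adjusted p = 0.00291 over 88 relations by Benjamini-Hochberg) and a Spearman rho of 0.917 (exact permutation p = 0.00131, adjusted p = 0.0385). Without yoked 2 and yoked 3, the libraries farthest from the median score, r was 0.91, and after subtracting each group's mean it was 0.97. With the oligodendrocyte score r was 0.94 (exact permutation p = 6.61e-05, adjusted p = 0.00291). That score was also highest in yoked 2, at 5.64, so the relations with the 2 scores are not independent of each other. Each lane held 3 libraries of 1 group, too few for a value within a lane. For Plxnb1 and the astrocyte score r was 0.812 (exact permutation p = 0.00957, adjusted p = 0.113), so that relation did not pass. It was 0.51 without yoked 2 and yoked 3, but leaving them out also narrows the range of the score. After subtracting each group's mean r was 0.827 for Plxnb1. For Plxnb2, the third B plexin, r was 0.28 (exact permutation p = 0.466, adjusted p = 0.65) and -0.25 without yoked 2 and yoked 3. The libraries numbered 3 had the lowest astrocyte score of each group and the permutations take no account of that. Over the 6 libraries left without them, an alternative chosen after seeing the data, r was 0.953 for Plxnb3 (exact permutation p = 0.0125). For Plxnb1 it was 0.79 (exact permutation p = 0.101). Whether the glial RNA, or other RNA from outside D1 neurons, carries the Plxnb3 reads was not tested.

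Of the 22 genes below the input in every pull-down, 17 had an r above 0 with the astrocyte score, and of the 4 above the input 0 did. Of all genes on those sides of the input, 72.2% and 45.7% had an r above 0, so the 17 of 22 lay near the share of all genes below it. Of the other 18 genes 2 had an r above 0, where 57.2% of all such genes did. By Pearson's r Plxnb3 was the single gene that passed adjustment with either score, while 12 of 44 genes had an unadjusted p under 0.05 with the astrocyte score, where 14.4% of all genes did, 7 with a positive r and 5 with a negative one. By Spearman's rho Sema4g passed too, with a rho of 0.90 for the astrocyte score (exact permutation p = 0.00203, adjusted p = 0.0446) and 0.917 for the oligodendrocyte score (exact permutation p = 0.00131, adjusted p = 0.0385). Its Pearson r of 0.765 and 0.811 did not pass (exact permutation p = 0.0169 and 0.00701, adjusted p = 0.113 and 0.103), and over the 6 libraries not numbered 3 it was 0.53 and 0.615. Among the negative were Sema4a, with an r of -0.84 (exact permutation p = 0.00232, adjusted p = 0.068), Sema3a, with an r of -0.767 (exact permutation p = 0.0145, adjusted p = 0.113), and Sema4f, with an r of -0.743 (exact permutation p = 0.0215, adjusted p = 0.118). CPM of 1 library share a total, so these correlations are not independent of each other.

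**Figure D2:**
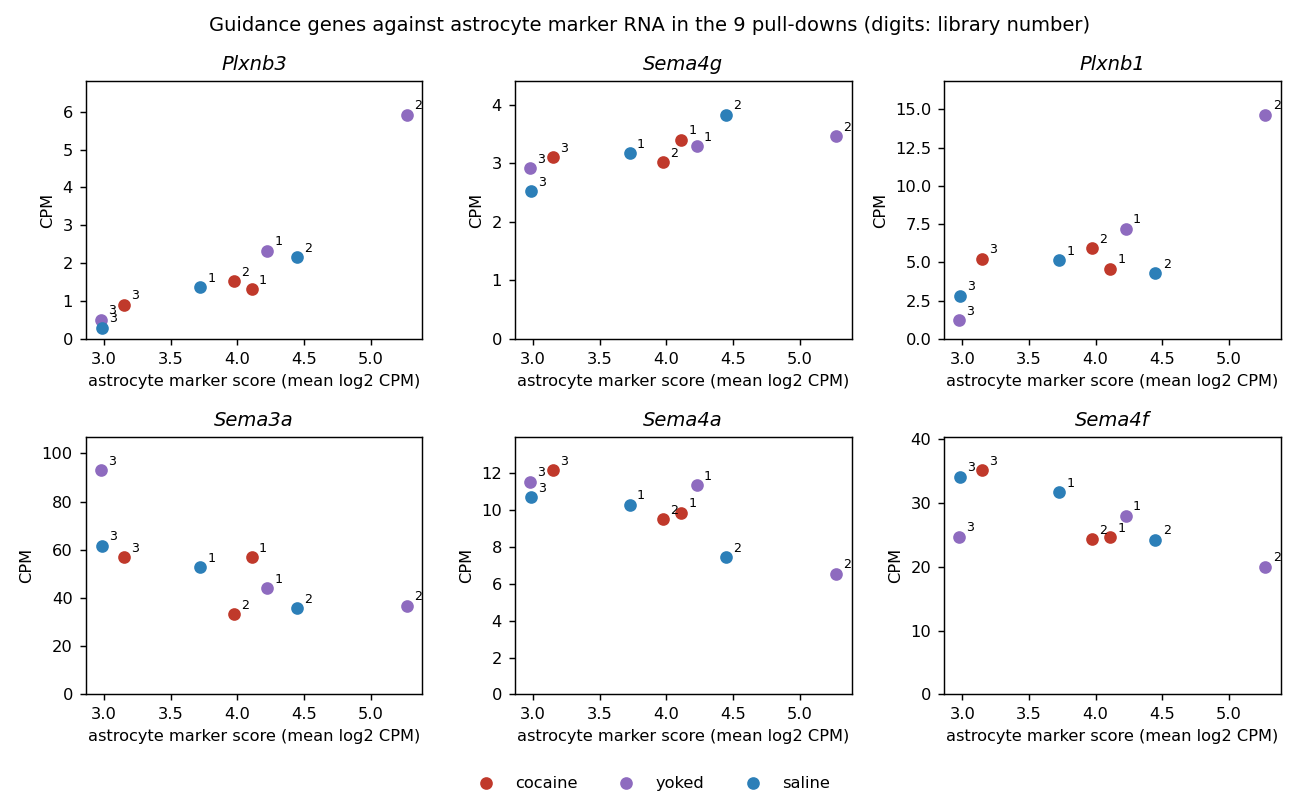
CPM of 6 guidance genes (y axis) against the astrocyte marker score, the mean log2 CPM of 9 markers (x axis), 1 point per pull-down, coloured by group and numbered by library. Plxnb3 rises with the score to 5.92 CPM in yoked 2, while Sema3a is highest, at 93.0 CPM, in yoked 3.

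Between the groups no guidance gene passed the test. By the quasi-likelihood test of edgeR, adjusted over 14680 genes by Benjamini-Hochberg, 0 of 45 guidance genes and 0 genes in all (0.0%) were called in each of the 3 comparisons, and DESeq2 and limma-voom called 0 of 45 as well. At an unadjusted p under 0.05 there was 1 guidance gene in each comparison, of 45 tested, each with a negative fold change, and 0 had a positive one. Of all genes 1.79% were higher and 1.05% lower at that level in cocaine than saline, 1.36% and 1.22% in cocaine than yoked, and 1.16% and 0.681% in yoked than saline. The comparisons share libraries, so their values are not independent of each other.

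**Figure D3:**
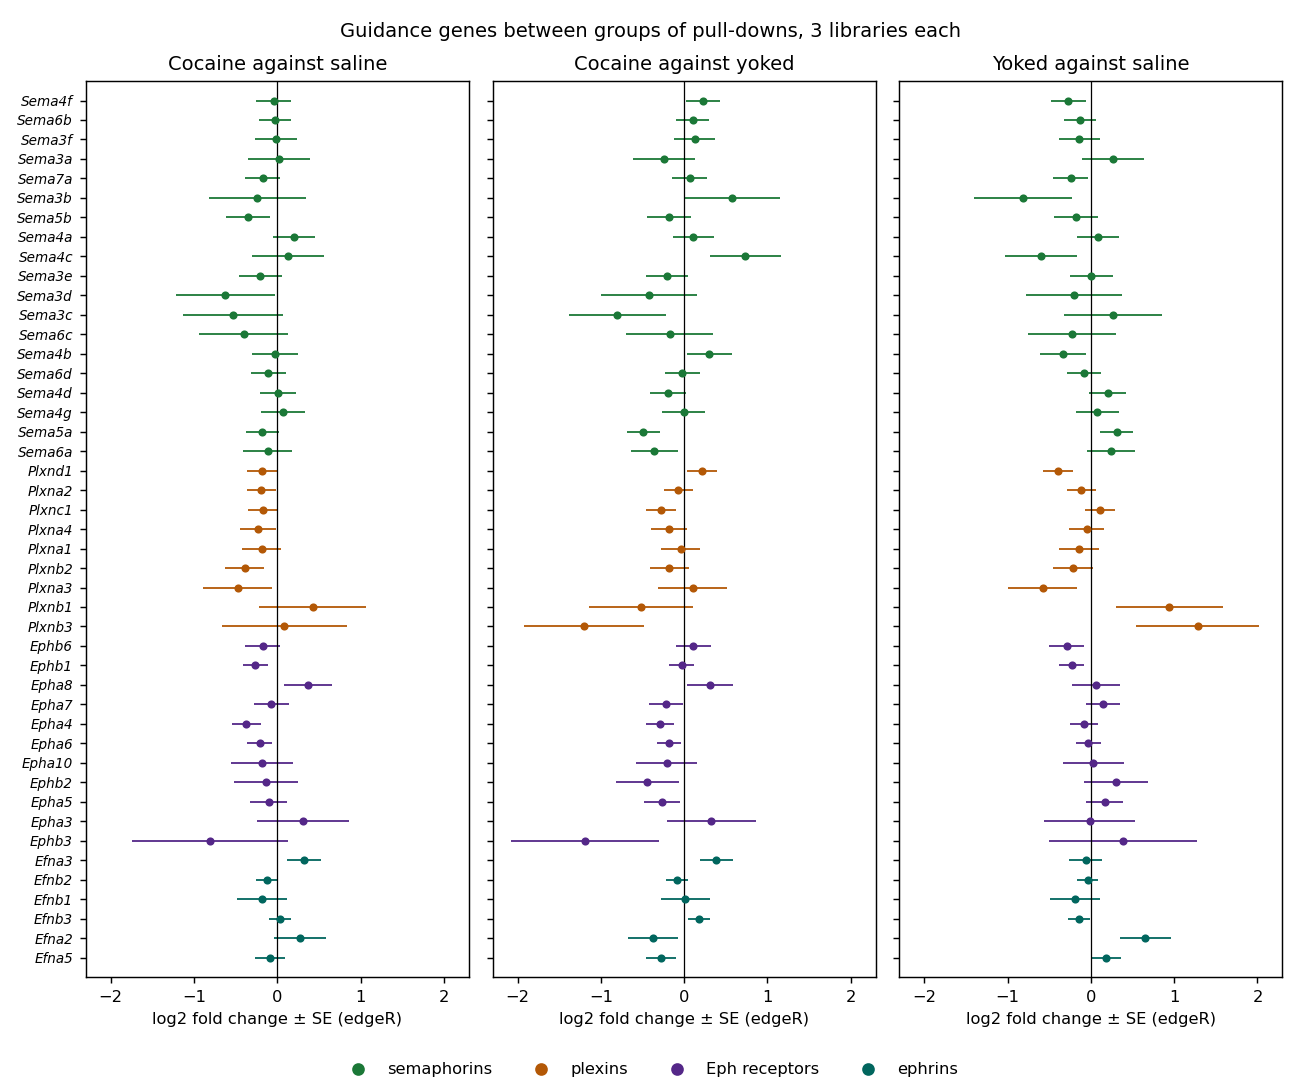
Log2 fold change with its SE from edgeR for the 45 tested genes in the 3 comparisons, coloured by family and ordered within a family by the ratio to the input. Most intervals of 1 SE cross or come close to 0, and those of the B plexins Plxnb1 and Plxnb3 are wide.

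Cocaine self-administration against saline asked which of these RNAs differ with the drug. Values leaned to the lower side. The log2 fold change was below 0 for 33 of 45 genes, where it was for 49.4% of all genes, with a median of -0.13 against 0.0036 over all genes. The value was below 0 for 9 of 11 Eph receptors, 7 of 9 plexins, 14 of 19 semaphorins and 3 of 6 ephrins. The median moved with single libraries, to -0.0099 without cocaine 2, -0.04 without saline 3 and -0.28 without cocaine 3. Of the 45, 2 had cocaine libraries all below the saline ones, Plxnb2 and Plxnc1, and 0 all above, where 7.31% and 3.76% of all genes did.

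Epha4 had the smallest unadjusted p. It was at 167, 116 and 152 CPM in cocaine 1, 2 and 3, 162, 169 and 202 CPM in yoked 1, 2 and 3, and 198, 162 and 223 CPM in saline 1, 2 and 3. Cocaine 1 lay above saline 2, so the groups overlapped, and cocaine 2 was the lowest of all. The log2 fold change was -0.37 ± 0.17 (SE; edgeR unadjusted p = 0.0494, adjusted p = 0.999), beside 1.05% of all genes lower at that level, and it was -0.24 without cocaine 2 and -0.23 without saline 3.

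Ephb1 was at 56.6, 43.4 and 51.3 CPM in cocaine and 67.0, 51.5 and 69.4 CPM in saline libraries, overlapping, with a log2 fold change of -0.26 ± 0.15 (edgeR unadjusted p = 0.109) that was -0.15 without saline 3 and -0.17 without cocaine 2. Plxnb2 was at 9.15, 5.44 and 8.64 CPM in cocaine and 10.8, 9.82 and 11.0 CPM in saline libraries. Its groups did not overlap, but the log2 fold change of -0.39 ± 0.24 (edgeR unadjusted p = 0.123) was -0.19 without cocaine 2. None of these 3 receptors passed over all genes.

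Cocaine self-administration was set against the yoked control, in which, by the general meaning of the word, delivery does not depend on the animal's own responding. The log2 fold change was below 0 for 29 of 45 genes, where it was for 54.5% of all genes, with a median of -0.17 against -0.03. The median was 0.02 without cocaine 2, -0.02 without yoked 2 and -0.06 without yoked 3. The smallest unadjusted p belonged to Sema5a. It was at 9.58, 5.95 and 7.40 CPM in cocaine 1, 2 and 3, 10.9, 11.9 and 9.64 CPM in yoked 1, 2 and 3, and 9.19, 8.94 and 8.81 CPM in saline 1, 2 and 3. Every cocaine library lay below every yoked one, by a narrow margin in cocaine 1, as was so for 1 of 45 guidance genes and 3.6% of all genes. The log2 fold change was -0.49 ± 0.19 (edgeR unadjusted p = 0.0256, adjusted p = 0.974, beside 1.22% of all genes lower at an unadjusted p under 0.05). It was -0.34 without cocaine 2, -0.42 without yoked 2 and -0.65 without cocaine 1.

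Efna3 was at 9.55, 8.32 and 12.1 CPM in cocaine and 7.93, 7.09 and 8.18 CPM in yoked libraries. Its groups did not overlap, with all cocaine libraries above, as for 1 of 45 guidance genes and 2.87% of all genes. The log2 fold change was 0.38 ± 0.20 (edgeR unadjusted p = 0.0736), and 0.19 without cocaine 3. Sema4c, a ligand of B plexins, was at 1.61, 1.91 and 4.48 CPM in cocaine and 2.23, 1.65 and 1.06 CPM in yoked libraries. Its log2 fold change of 0.73 ± 0.43 (edgeR unadjusted p = 0.108) rested on cocaine 3, without which it was 0.10.

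The yoked control was also set against saline self-administration. The log2 fold change was below 0 for 26 of 45 genes, where it was for 45.0% of all genes, with a median of -0.05 against 0.03. The median was 0.06 without saline 3, -0.03 without yoked 1 and -0.10 without saline 2. Plxnd1 had the smallest unadjusted p, at 80.2, 76.7 and 56.7 CPM in yoked 1, 2 and 3 and 100.1, 79.0 and 108 CPM in saline 1, 2 and 3. In cocaine libraries it was at 92.4, 63.2 and 89.0 CPM. The yoked and saline groups overlapped, and the log2 fold change of -0.39 ± 0.18 (edgeR unadjusted p = 0.0465, adjusted p = 0.999, beside 0.681% of all genes lower at an unadjusted p under 0.05) was -0.28 without yoked 3 and -0.26 without saline 3.

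Efna2, a lipid-anchored ephrin, was at 3.88, 5.33 and 4.18 CPM in yoked and 3.59, 2.47 and 2.65 CPM in saline libraries. It and Sema5a were the 2 of 45 genes with all yoked libraries above all saline ones, where 2.48% of all genes were. The log2 fold change of Efna2 was 0.65 ± 0.31 (edgeR unadjusted p = 0.0534), and it was 0.51 without yoked 2 and 0.82 without saline 1. None of the 45 had all yoked libraries below the saline ones, where 4.42% of all genes did. Plxnb3, whose values in each library stand above, had a log2 fold change of 1.28 ± 0.74 (edgeR unadjusted p = 0.107). For Plxnb3 it was 0.23 without yoked 2, the library with the highest astrocyte score, and 1.82 without saline 2. It was 0.80 without saline 3 and 1.79 without yoked 3, the 2 libraries with the lowest astrocyte score. Without yoked 3 its unadjusted p was 0.00875 and it was not called after adjustment. Plxnb1, added here after its values were seen, had 0.94 ± 0.64 (edgeR unadjusted p = 0.172), with 0.07 without yoked 2 and 1.44 without yoked 3. Without yoked 3 the unadjusted p of Plxnb1 was 0.000306, the smallest of any guidance gene in any run. It was not called after adjustment. Which part of these differences goes with the glial RNA was not tested.

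**Figure D4:**
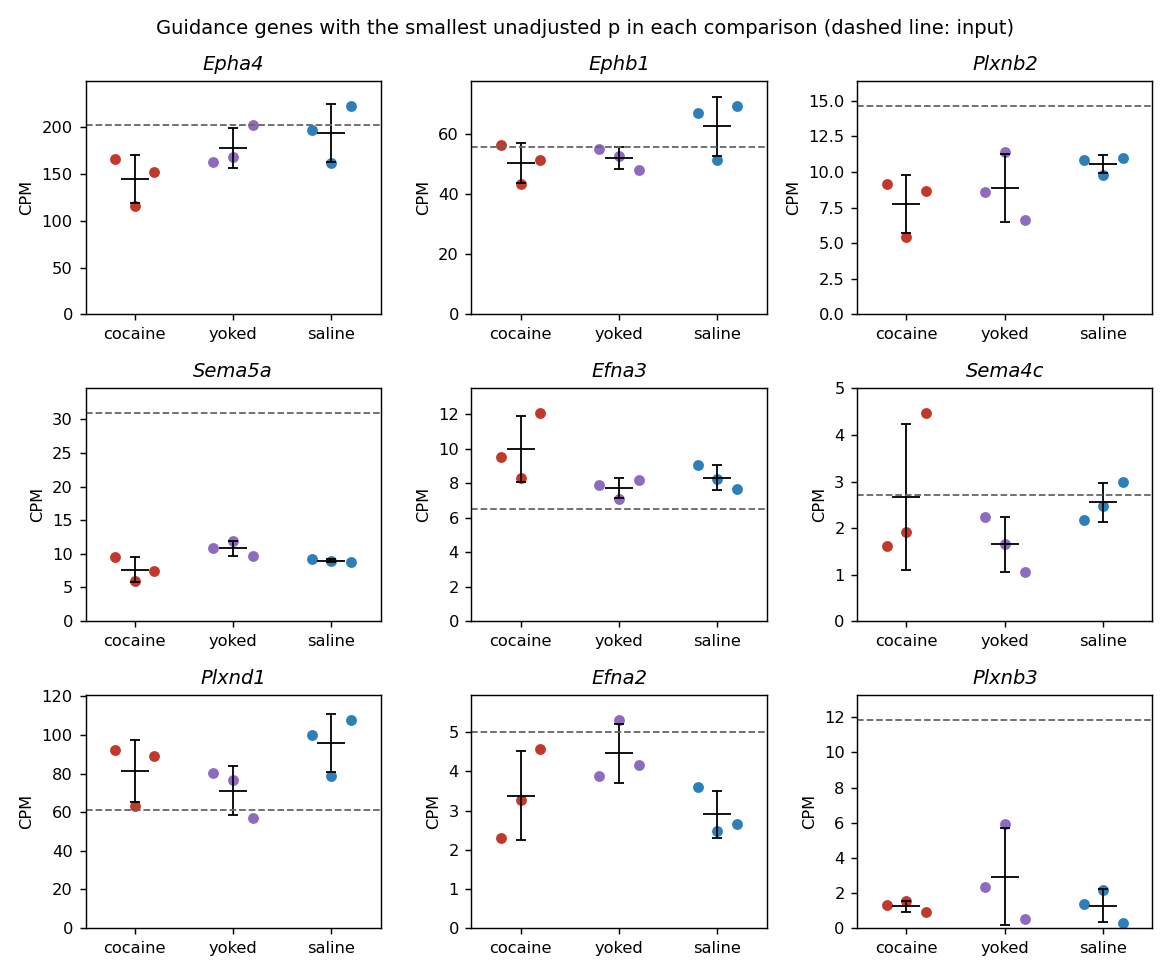
CPM in each pull-down (points, 1 per library), with the group mean and SD (black, n = 3) and the input level (dashed), for the 3 genes with the smallest unadjusted p in each comparison. Sema5a and Plxnb3 lie below the input in every library and Efna3 above it. Cocaine and yoked libraries do not overlap for Sema5a and Efna3, and do for Sema4c.

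Of 40 co-receptors and signalling partners of these families, all matched a row and 36 passed the level filter. Their median log2 ratio to the input was 0.03. In every pull-down 12 were above and 14 below it, where 29.7% and 35.6% of all genes were. The highest were Cdk5, a kinase that phosphorylates collapsin response mediators, at 67.6 to 104 CPM against 33.3, and Kalrn, a signalling protein of dendritic spines that acts downstream of EphB receptors, at 470 to 637 CPM against 254. The lowest were Farp1, an exchange factor linked to class 6 semaphorins and A plexins, at 1.35 to 6.96 CPM against 19.4, and Vav2, an exchange factor downstream of Eph receptors, at 0.155 to 2.15 CPM against 2.42. Between groups 0 of 39 tested were called by edgeR in any comparison. At an unadjusted p under 0.05 there was 1 for cocaine against saline (Cdk5, higher). There were 2 for cocaine against yoked (Cdk5, higher, and Vav3, lower) and 1 for yoked against saline (Mical2, lower). At that level 1.79% of all genes were higher and 1.05% lower in cocaine than saline. The shares were 1.36% and 1.22% in cocaine than yoked, and 1.16% and 0.681% in yoked than saline.

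The netrin, slit and RGM genes, other guidance families, lay lower. Of 22 genes 19 passed the level filter, with a median log2 ratio of -0.65. In every pull-down 0 were above and 11 below the input, where 29.7% and 35.6% of all genes were. The highest were the netrin receptor gene Unc5a, at 32.3 to 74.0 CPM against 46.0, and the slit receptor gene Robo2, at 82.3 to 152 CPM against 105. The lowest were Rgma, a ligand of neogenin, at 4.20 to 8.17 CPM against 37.6, and Unc5b, another netrin receptor gene, at 1.19 to 12.4 CPM against 24.0. Between groups 0 of 19 tested were called by edgeR. At an unadjusted p under 0.05 there was 1 for cocaine against saline (Ntng1, lower), where 1.05% of all genes were lower and 1.79% higher. There was 1 for cocaine against yoked (Unc5c, lower), where 1.22% were lower and 1.36% higher. There were 0 for yoked against saline, where 0.681% were lower and 1.16% higher. The difference between the lists was not tested.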

How the data were processed

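TRAP-seq libraries (ribosome-bound RNA of tagged cells, captured with anti-EGFP antibodies) and 1 input were used. Values as deposited are unnormalised counts of reads for each gene symbol. Per the submitters' processing notes, the authors used STAR 2.0.0e, HTSeq and the mm10 build. The sources used here do not state which annotation, strand setting, counting mode or HTSeq version was used. Each file held 6 rows naming no gene, which were left out. Of the reads in gene, no-feature and ambiguous rows, 12.3% to 16.1% lay in no feature in pull-downs and 27.6% in the input.

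Groups were compared in R 4.3.3 with the quasi-likelihood test of edgeR 4.0.16, TMM scaling and filterByExpr over all 9 pull-downs, with group as the only term and Benjamini-Hochberg adjustment over 14680 genes. An SE is the absolute fold change (log2) over the square root of F. DESeq2 1.42.0 and limma-voom (limma 3.58.1) were alternatives. The test was checked on simulated counts with genes changed in the cocaine group. At 2-fold edgeR recovered 63 of 100 genes for cocaine against saline and 67 of 100 for cocaine against yoked. At 4-fold it recovered 93 and 96 of 100, and it made 5 and 7 false calls. Changes under 2-fold were not simulated, so 0 calls does not show that there are none. Ratios to the input are log2 of CPM plus 0.5 in each pull-down over that in the input, averaged over 9, and a fold on that scale understates the change of low genes. CPM were not divided by transcript length, so levels are not compared between genes. Coordinates and promoters are from RefSeq on GRCm38.p6.

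Genes named in full are the 3 with the smallest unadjusted p in each comparison, the 2 highest and 2 lowest ratios to the input in each family and the gene with the most CPM in each family. Genes, lists and tests were chosen with earlier results of these data known.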

Additional observations from a re-analysis of the deposited data

How the results depend on the processing

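No guidance gene was called under any alternative run, with any left-out library, without the libraries numbered 3 (chosen after seeing the data) or with a replicate block. Over all genes the count of 0 became 1 between cocaine and saline with DESeq2 and without the libraries numbered 3, and 1 in all 3 comparisons with the replicate block. Leaving out 1 library gave 0 to 1 for cocaine against saline, 0 for cocaine against yoked and 0 to 1 for yoked against saline, the 1 in both cases without yoked 3, and 0 guidance genes throughout. Correlations of deviations from the group mean were -0.02 to 0.05 between libraries numbered 1, 0.13 to 0.23 between those numbered 2 and 0.23 to 0.25 between those numbered 3, against -0.25 to 0.15 between different numbers. All pairs numbered 2 and 3 passed 0.1 but those numbered 1 did not, so the number was not taken as a pairing in the main fit. A pairing was not excluded, and the replicate block is given as an alternative. With the block the median log2 fold changes of the 45 genes were -0.12, -0.15 and -0.04. Epha4 between cocaine and saline was then at -0.37 (edgeR unadjusted p = 0.0191, adjusted p = 0.998). Plxnb3 between yoked and saline was at 1.07 (edgeR unadjusted p = 0.039, adjusted p = 0.998).

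Leave-one-out medians were -0.28 to -0.0099 for cocaine against saline, -0.20 to 0.02 (0.0244, without cocaine 2) for cocaine against yoked and -0.10 to 0.06 for yoked against saline, and -0.43 to -0.37 for the ratio to the input. The count at least 2-fold below the input was 5 to 7, with 7 without yoked 2, and the count above 0 throughout. With TMM scaling it was 3 and the median ratio -0.20, since that scaling shifts all genes upward. A different count came from edgeR with the input as a group of its own, whose lone library is assumed to vary like the pull-downs. There 8 genes had an adjusted p under 0.05 and lay at least 2-fold below the input on average over the groups. That count sets no condition on each pull-down. Sema4c between cocaine and yoked turned to -0.12 without the libraries numbered 3. Ephb3 had 2 to 53 counts in a pull-down, where counting error alone is large. The effect of depth on other genes was not tested.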
